A study of Sus scrofa with 33 samples.

Results

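The genes described here are the heat shock proteins, their co-chaperones and the heat shock factors, measured in the pituitary of pigs. Members were taken by their name on the array: names beginning with HSPA, HSPB, HSPH, HSP90A or DNAJ, or with CCT, BAG or HSF followed by a digit, without HSPA5 and HSPA9, the main HSP70 proteins of the endoplasmic reticulum and the mitochondrion. The rule found 63 of 45222 gene names, with 126 probes of 122 distinct sequences. For 60 of them, of 32919 gene names in all, the authors' table of normalised values held a probe, and the brightest was used. DNAJC2, DNAJC5B and HSF4 had none there and were not analysed. All 60 chosen probes passed the filter on dim probes, and 58 were well above background on all 33 arrays. The exceptions were DNAJB5 and HSPB7. The word cytosolic suits most but not all members, since some work in the endoplasmic reticulum (for example DNAJB9, DNAJB12 and DNAJC3) or in the mitochondrion (for example DNAJA3 and DNAJC19).

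The pigs were castrated males of 3 genetic groups, Large White (LW), Creole (CR) and their cross (F1), moved at 11 weeks of age to a climatic room. Thermoneutral (TN) pigs were slaughtered at 24 °C before the temperature was raised, and heat stress (HS) pigs after 4 or 5 days of heat, labelled 30 °C on the samples and 32 °C in the protocol. There were 5 TN and 6 HS arrays of LW, 5 and 6 of CR, and 6 and 5 of F1, with 1 pig per array. LW HS 3 is Large White by its title and Creole by another label, and the called results that turn on it are given both ways. HS pigs were killed later than TN pigs, so temperature, date and age cannot be told apart. In bulk tissue, fewer cells of a type and less RNA per cell cannot be told apart either.

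Heat shock proteins keep other proteins folded. HSP70 proteins hold exposed stretches of a client in a cycle driven by ATP. J-proteins, encoded by the DNAJ genes, bring the client and start the cycle. HSP110 proteins (HSPH1, HSPA4, HSPA4L) and BAG proteins exchange the nucleotide and end it. HSP90 finishes the folding of signalling proteins such as steroid receptors, and the CCT ring folds actin and tubulin. When damaged proteins accumulate in a heated cell, the transcription factor HSF1 is released and switches on HSPA1A, HSPH1, DNAJB1, HSP90AA1, HSPB1 and others within hours. HSPA8 is made at a high level at all times and is induced less.

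The median intensity of an array was between 131 and 165, with 20 to 47.5 for the local background, and no saturated spot was found. Values below are log2 intensities after quantile normalisation, and 1 unit is a doubling. A difference is from limma over all 47083 kept probes, with its standard error (SE), and was called at a Benjamini-Hochberg adjusted p under 0.05. Of the pituitary hormone genes listed as markers, 6 of 7 were kept (CGA, FSHB, GH1, LHB, POMC and PRL, without TSHB). Markers of the posterior and intermediate lobes (AVP, OXT, GFAP and PAX7) were kept too, although the paper states that the anterior lobe was sampled. AVP averaged 16.996 in HS and 16.981 in TN arrays and OXT 15.637 and 15.707, beside 16.314 in both for FSHB. GFAP (6.11 and 6.21) and PAX7 (8.48 and 8.47) were dimmer. Whether the samples held tissue of other lobes was not tested. The within-group standard deviation (SD) of the members had a median of 0.188, beside 0.198 over all kept probes.

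No member passed the test between HS and TN pigs. The limma test called 0 of 60, beside 0.0191% of all probes, and 2 of 60 had an unadjusted p under 0.05 (3.33%, beside 8.68% of all probes). The differences ran from -0.16 to 0.15. For 57 of 60 members the 95% interval lay within 0.32 log2 units of 0, a 1.25-fold change, as it did for 83.7% of all probes. The 3 others were CCT6B (-0.41 to 0.09), HSPA4 (-0.36 to 0.16) and HSP90AA1 (-0.08 to 0.36). In direction, 38 members were higher in HS pigs (63.3%, beside 53.9% of all probes), and their median difference was 0.03, beside 0.01.

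**Figure D1:**
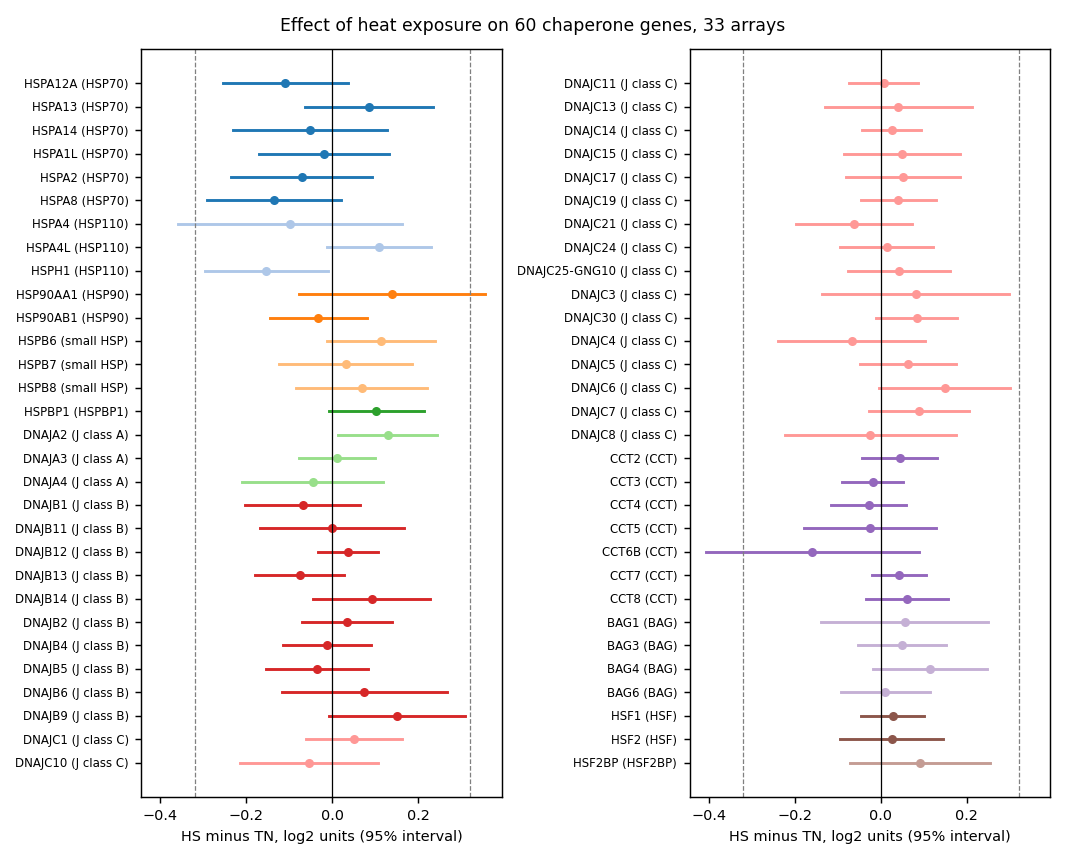
HS minus TN difference of the 60 members in log2 units (point) with its 95% interval (line), coloured by protein family. Dashed lines mark 0.32 log2 units on either side of 0. All but 3 intervals lie between them, and 2 (DNAJA2 and HSPH1) do not cover 0.

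Among the genes known to be driven by HSF1 most values were slightly lower in HS pigs, with no call. Of the 12 listed, 8 were measured, and 6 of these had a negative and 2 a positive difference, with a median of -0.06. HSPH1, the HSP110 protein of the cytosol, ranged from 11.57 to 12.48 around a median of 11.92 in the 17 HS arrays and from 11.94 to 12.47 around 12.08 in the 16 TN arrays. The arrays overlapped, with the lowest values all in HS pigs, and in 13 of 17 HS arrays the level was under the average of TN pigs of that breed. The difference was -0.15 (SE 0.07, p 0.0356, limma adjusted p 0.531). HSPA8, the constant HSP70 of the cytosol, ranged from 14.64 to 16.06 around 15.41 in HS pigs and from 15.40 to 15.76 around 15.52 in TN pigs. Again 13 of 17 HS arrays were under that average, and the difference was -0.14 (SE 0.08, limma adjusted p 0.650, and -0.09 without F1 HS 2).

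DNAJB1, the main heat-induced J-protein, ranged from 12.79 to 13.47 in HS pigs and from 12.96 to 13.54 in TN pigs, and differed by -0.07 (SE 0.07, limma adjusted p 0.798). Over the alternatives and arrays left out its difference ran from -0.11 to -0.04. All 5 of its probes had a negative difference, from -0.15 to -0.07, and none was called. HSP90AA1, the inducible HSP90, ranged from 15.52 to 16.53 and from 15.24 to 16.45, and differed by 0.14 (SE 0.11, limma adjusted p 0.744, and 0.09 to 0.20 over those settings). BAG3, which links HSP70 to autophagy, differed by 0.05 (SE 0.05). HSF1 differed by 0.03 (SE 0.04), HSF2 by 0.03 (SE 0.06) and HSP90AB1, the constant HSP90, by -0.03 (SE 0.06) on its single probe under this name, which is dim (mean 6.32). In all of these genes HS and TN arrays overlapped.

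**Figure D2:**
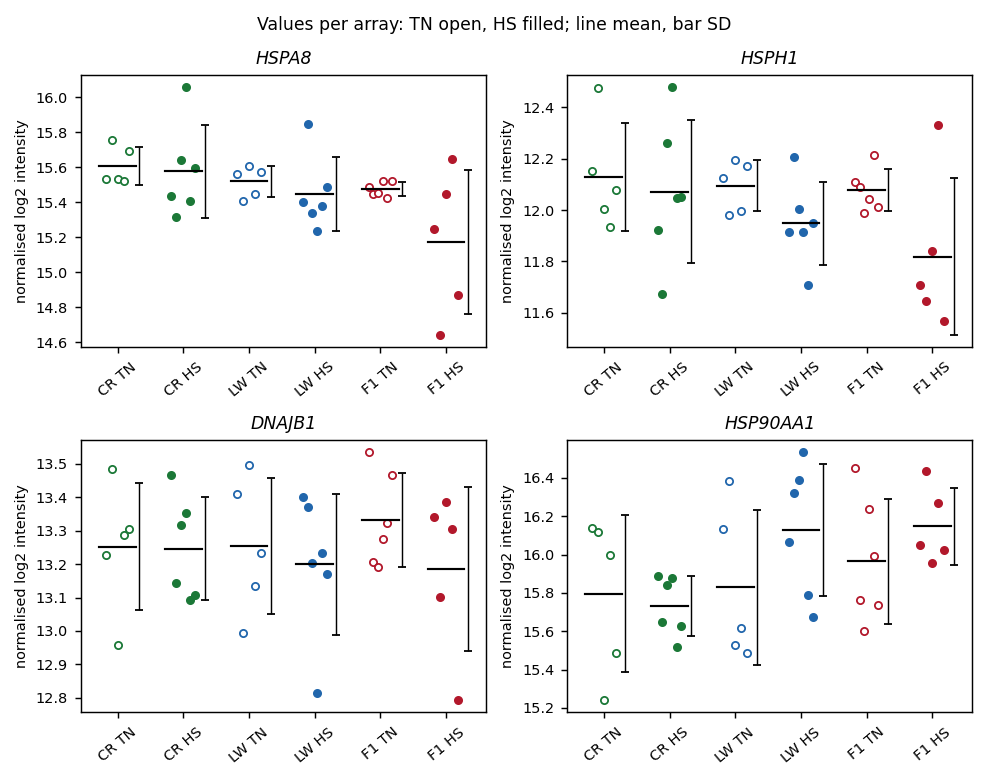
Normalised log2 intensity of HSPA8, HSPH1, DNAJB1 and HSP90AA1 on each array by breed and temperature (TN open circles, HS filled circles), with the group mean (line) and SD (bar). HS and TN arrays overlap in each breed, and the F1 HS arrays of HSPA8 spread from 14.64 to 15.65 while the F1 TN arrays lie between 15.43 and 15.52.

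Among the other families the differences were as small. The 6 HSP70 genes ranged from -0.14 to 0.09, with 5 lower. The 3 small heat shock proteins (HSPB6, HSPB7 and HSPB8) ranged from 0.03 to 0.11 and the 4 BAG genes from 0.01 to 0.11. The 7 CCT subunits ranged from -0.16 to 0.06 around a median of -0.02. Of the 18 class C J-proteins, 14 were higher, with a median of 0.04 and a highest value of 0.15. The smallest p of all members was that of DNAJA2, a class A J-protein of the cytosol, at 0.13 (SE 0.06, p 0.0289, limma adjusted p 0.509), with 14 of 17 HS arrays above the TN average of their breed, and it fell to 0.05 with the evenness measure below as a covariate. DNAJC6, the auxilin that uncoats clathrin vesicles, was at 0.15 (SE 0.08, p 0.0568, and 0.28 with the same covariate, limma adjusted p 0.576), DNAJB9 of the endoplasmic reticulum at 0.15 (SE 0.08, p 0.0635) and HSPBP1, a nucleotide exchange factor of HSP70, at 0.10 (SE 0.05, p 0.0699, and 0.04 with that covariate).

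HSPA1A, HSPA1B, HSPB1 and DNAJA1 were not found under these names. Probes under older names, looked up after the names in the files were seen, were HSP70.2, an inducible HSP70, HSPCB (now HSP90AB1) and HSP27 (now HSPB1). The 2 HSP70.2 probes were at -0.14 and -0.04, the 6 HSPCB probes between 0.03 and 0.09, and the 2 HSP27 probes at 0.03 and 0.05 in HS minus TN, with no call among them. The HSPCB differences thus had the opposite sign to that of the dim HSP90AB1 probe. Of 25 other genes of the pathway, from HOP to the prefoldins, 23 were measured and none was called (14 higher, 9 lower). Their differences ran from -0.40 to 0.20. Of the 23, 3 higher and 2 lower genes had an unadjusted p under 0.05, beside 8.68% of all probes. SERPINH1, the collagen chaperone HSP47, was at -0.24 (SE 0.09, limma adjusted p 0.393).

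Some other measures had different values in HS and TN pigs, with a call for HBB alone among the markers. Of 3 blood markers kept, HBB, the beta chain of haemoglobin, was called lower in HS pigs at -1.15 (SE 0.21, limma adjusted p 0.0307), while SLC4A1 at -0.03 (SE 0.09) and ALAS2 at -0.03 (SE 0.09) were not called. The HBB call was lost with array weights (-0.96, limma adjusted p 0.135), with the evenness measure below as a covariate (-0.92, limma adjusted p 0.527) and on leaving out 14 of 33 arrays in turn. The summed blood level ran from 11.49 to 12.15 in HS arrays and from 11.66 to 12.95 in TN arrays. All 5 endothelial markers (-0.40 to -0.05), all 4 mural and smooth muscle markers (-0.46 to 0.00) and all 5 leukocyte markers (-0.14 to -0.02) also had negative differences, with no call, while their summed levels overlapped (12.05 to 12.79 in HS and 12.28 to 13.70 in TN for endothelium). The evenness of signal along transcripts, taken as the median difference between upstream and downstream probes of 1817 transcripts, averaged 0.0167 ± 0.0319 (SD, n = 17) in HS arrays and -0.0181 ± 0.0281 (SD, n = 16) in TN arrays. That difference in evenness was given no test. With evenness as a covariate 0 members were called as before. The part of these measures in the differences of the chaperones was not tested further.

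HSPA8 varied more between HS pigs than between TN pigs. Its SD within groups was 0.299 over HS arrays and 0.0816 over TN arrays, a ratio of 3.67, and 48 of 47082 kept probes had a ratio that large. This was chosen after its values were seen and is given with no test. The other HSPA8 probe gave 0.315 and 0.117. In F1 HS pigs the 5 values were 15.25, 14.64, 15.45, 15.65 and 14.87, so that pigs lay both below and above the narrow band of F1 TN pigs. For HSPH1 the SD was 0.252 in HS and 0.138 in TN pigs, a ratio of 1.82, and its 3 other probes gave 2.08, 0.936 and 0.959. A wider spread in HS pigs was common: it held for 40 of 60 members (66.7%) and for 60.5% of all probes, with a ratio of 2 or more in 3.33% and 3.67%. The lowest ratios, with a wider spread in TN pigs, were those of DNAJB12 (0.39), DNAJC7 (0.435) and DNAJC8 (0.499).

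Within a single breed no member passed the test, and 0 of 60 were called by limma in LW, in CR and in F1, beside 0% of all probes each time. Unadjusted p was under 0.05 for 2 members in LW, 1 in CR and 2 in F1 (3.33%, 1.67% and 3.33%, beside 6.76%, 5.88% and 5.71% of all probes). In F1 pigs HSPA8 differed by -0.30 (SE 0.13, p 0.0284) and HSPH1 by -0.26 (SE 0.12, p 0.0430), with a limma adjusted p of 0.861 for both. Without F1 HS 2 the HSPA8 difference was -0.17, and no member had an unadjusted p under 0.05 in F1 pigs. In LW and CR pigs the same genes were at -0.07 and -0.03 (HSPA8) and at -0.15 and -0.06 (HSPH1). Over the alternatives and arrays left out, HSPA8 ran from -0.15 to -0.02 in LW and from -0.13 to 0.03 in CR pigs. HSPH1 ran from -0.20 to -0.10 in LW and from -0.14 to 0.03 in CR pigs. In LW pigs DNAJC6 was at 0.33 (SE 0.13, limma adjusted p 0.663) and DNAJC13, a J-protein of endosomes, at 0.29 (SE 0.14, limma adjusted p 0.733). Next by p in LW were BAG4 at 0.22 (0.11 without LW HS 6), DNAJB14 at 0.22 (0.13 without LW TN 2, 0.09 under an alternative) and HSPA4 at -0.38 (-0.25 without LW TN 1). In F1 pigs they were DNAJC14 at 0.10 (0.06 to 0.14 over all settings), DNAJC10 at -0.23 (-0.14 without F1 HS 2, -0.43 with scaled processed intensity) and HSPA1L at -0.21 (-0.14 without F1 HS 2). In CR pigs they were, after DNAJB6, DNAJB9 at 0.26, DNAJC24 at 0.16 (0.09 to 0.21 over all settings), DNAJC7 at 0.18 (0.02 without CR TN 3) and CCT7 at 0.09 (0.06 to 0.19 over all settings). HSP90AA1, HSP90AB1, DNAJB1, BAG3, HSF1 and HSF2 lay between -0.16 and 0.30 in the 3 breeds.

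In CR pigs DNAJB6, a J-protein that keeps aggregation-prone proteins soluble, was at 0.44 (SE 0.15, p 0.00636, limma adjusted p 0.830). Its 5 CR TN values were 9.96, 9.75, 10.18, 9.66 and 10.02, and its CR HS values ran from 10.12 to 10.43 around a median of 10.41, so that 1 HS pig overlapped the TN pigs. In LW and F1 pigs its HS and TN values overlapped. Whether the effect of heat differed between breeds was tested as an interaction. It was called for 0 of 60 members, beside 0% of all probes, and 1 member, DNAJB6 (p 0.0204, limma adjusted p 0.925), had an unadjusted p under 0.05 (1.67%, beside 4.29%). Next by p were DNAJC13 (p 0.0903), DNAJC24 (p 0.111), DNAJC10 (p 0.125) and HSPA1L (p 0.131). For HSPA8 the interaction had p 0.302, for HSPH1 p 0.512, and for the 6 other genes always named p from 0.161 to 0.959.

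Between breeds 2 members differed. In LW against CR pigs limma called 2 of 60 (3.33%, beside 6.53% of all probes), HSPA4 lower and DNAJA4 higher in LW, and 4 had an unadjusted p under 0.05 (6.67%, beside 18.4%). In F1 against CR pigs it called 1 of 60 (1.67%, beside 6.66% of all probes), HSPA4 again lower, and 9 had an unadjusted p under 0.05 (15%, beside 21.5%). In F1 against LW pigs it called 0 of 60, beside 1.43% of all probes, and 6 members had an unadjusted p under 0.05 (10%, beside 13.7%). These shares were at or below those of all probes, and the 3 comparisons share their arrays. Per the paper each breed had 3 blocks of 4 littermates, which the labels do not give. Arrays of a breed were fitted as independent, so SE and p in all breed comparisons may be too small. A breed difference cannot be told apart from one between litters. Chosen probes of HSPA4 and DNAJA4 are shown by the first 30 of their 60 bases, since they carry the calls, and the other DNAJA4 probe whole, since it did not pass.
HSPA4: taaagatttgtatcctggcctgcttattca
DNAJA4 called: gtgttgcttgaaatttatgccacctgtaca
DNAJA4 not called: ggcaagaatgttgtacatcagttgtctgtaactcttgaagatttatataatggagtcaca

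HSPA4 encodes an HSP110 protein of the cytosol and has a single probe here, whose place in the transcript the files do not give. Its values ran from 9.09 to 9.81 around a median of 9.57 in CR pigs, from 8.43 to 9.66 around 8.94 in LW pigs and from 7.88 to 9.64 around 8.86 in F1 pigs. CR pigs were high throughout and LW and F1 pigs reached from well below them into their range. In LW 10 of 11 arrays, and in F1 10 of 11, lay below the CR mean. The difference was -0.55 (SE 0.16, limma adjusted p 0.0255) for LW minus CR and -0.70 (SE 0.16, limma adjusted p 0.00604) for F1 minus CR. Within slides, LW minus CR was 0 on slide 1, with 1 array each, and between -0.71 and -0.35 on the 4 others, and F1 minus CR was between -0.81 and -0.49 on all 5. The call between LW and CR was lost when LW HS 3 was taken as Creole (-0.47, limma adjusted p 0.109), with evenness along transcripts as a covariate (-0.47, limma adjusted p 0.0715) and without LW HS 5 (-0.52, limma adjusted p 0.0505). That between F1 and CR passed under all alternatives run, with adjusted p from 0.00095 to 0.0189.

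DNAJA4, a class A J-protein induced through HSF1, ran from 10.91 to 11.57 around 11.19 in LW pigs, from 10.48 to 11.22 around 10.76 in CR pigs and from 10.49 to 11.48 around 10.93 in F1 pigs. All 11 LW arrays lay above the CR mean, while some CR arrays reached into the LW range. LW minus CR was 0.35 (SE 0.10, limma adjusted p 0.0234), and between 0.26 and 0.48 on each of the 5 slides. The call was lost with the evenness covariate (0.33, limma adjusted p 0.0520), without CR HS 2 (0.32, limma adjusted p 0.0508) and without LW TN 3 (0.31, limma adjusted p 0.0502). A further probe has the identical sequence, starting at base 2928 of the transcript, and gave 0.34 (limma adjusted p 0.0229). It is no independent measure. The probe starting at base 373 gave 0.15 (SE 0.09, limma adjusted p 0.379) for LW minus CR and 0.21 (SE 0.09, limma adjusted p 0.147) for F1 minus CR. F1 pigs lay between the parents on the brightest probe, at -0.25 from LW (SE 0.10, limma adjusted p 0.206) and 0.10 from CR (SE 0.10).

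**Figure D3:**
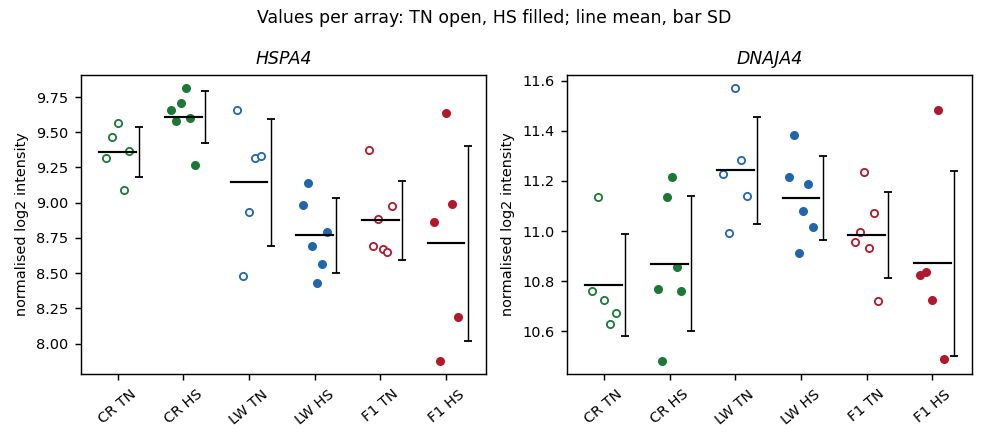
Normalised log2 intensity of HSPA4 and DNAJA4 on each array by breed and temperature (TN open, HS filled), with group mean (line) and SD (bar). On average HSPA4 is highest in CR pigs, between 9.09 and 9.81, and DNAJA4 in LW pigs, between 10.91 and 11.57, with overlap between breeds.

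HSF2, the heat shock factor of development, came nearest to a call in F1 pigs. It ran from 7.95 to 8.42 around 8.01 in F1 pigs, from 7.73 to 8.12 around 7.83 in LW pigs and from 7.63 to 8.32 around 7.87 in CR pigs. All 11 F1 arrays were above the mean of either parent. The difference was 0.26 from LW (SE 0.07, limma adjusted p 0.0568) and 0.21 from CR (SE 0.07, limma adjusted p 0.0791). BAG1, an exchange factor that brings HSP70 to the proteasome, was 0.37 above LW (SE 0.12, limma adjusted p 0.103) and 0.33 above CR (SE 0.12, limma adjusted p 0.0788). HSF2 F1 minus LW passed under 4 of 9 alternatives, slide as a fixed block (0.29, limma adjusted p 0.0327) or random block (0.27, limma adjusted p 0.0323), array weights and LW HS 3 as Creole (0.29, limma adjusted p 0.0453), and with 7 of 33 arrays left out in turn, LW HS 3 among them (limma adjusted p 0.0416). HSF2 F1 minus CR passed with slide as a fixed block (0.22, limma adjusted p 0.0490) and without CR TN 2 (0.25, limma adjusted p 0.0169). BAG1 passed in both comparisons with array weights (0.44 and 0.31, limma adjusted p 0.00582 and 0.0423) and without F1 HS 3 (limma adjusted p 0.0349 and 0.0254). It passed under no other setting, with limma adjusted p up to 0.219 from LW and 0.174 from CR.

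HSPA8 was lowest in F1 pigs, at 15.34 ± 0.306 (SD, n = 11), beside 15.59 ± 0.201 in CR pigs and 15.48 ± 0.164 in LW pigs. F1 minus CR was -0.27 (SE 0.09, limma adjusted p 0.0815) and the other probe gave -0.30 (limma adjusted p 0.0786). F1 minus CR passed under 0 of 9 alternatives and with 1 of 33 arrays left out, F1 HS 4 (-0.31, limma adjusted p 0.0357). With another array left out it fell as far as -0.20. F1 minus LW was -0.155, ran from -0.20 to -0.09 with an array left out, and passed under no setting. HSPH1, HSP90AB1, DNAJB1, BAG3 and HSF1, with differences from -0.15 to 0.08, and HSP90AA1, with 0.07 to 0.30, were not called in any comparison of breeds. HSP90AB1 was read here on its dim probe, at 0.06 in LW minus CR. Of the 6 HSPCB probes 5 were negative there, from -0.27 to -0.01, and 1 was at 0.14. Of these, 3 had an unadjusted p under 0.05, at -0.27, -0.26 and -0.16, and none was called (limma adjusted p 0.103 or more). Among J-proteins, DNAJC7, which works with both HSP70 and HSP90, was 0.20 higher in LW than in CR pigs (SE 0.07, limma adjusted p 0.0751). It was 0.13 without CR TN 3, and passed without CR TN 2 (0.23, limma adjusted p 0.0408) and with array weights (limma adjusted p 0.0287). DNAJB12 of the endoplasmic reticulum was 0.12 higher in F1 than in CR pigs (SE 0.04, limma adjusted p 0.0726), and passed with slide as a fixed block (0.13, limma adjusted p 0.0336) or random block (0.13, limma adjusted p 0.0415), with array weights (limma adjusted p 0.0449) and without LW TN 2 (limma adjusted p 0.0457). DNAJB12 passed under no other setting, with limma adjusted p up to 0.154. DNAJC19 of the mitochondrion was 0.11 and HSPB7 0.17 higher in LW than in CR pigs (limma adjusted p 0.223 and 0.336), and HSPB7 was at 0.41 with scaled processed intensity (limma adjusted p 0.276). In F1 minus LW, DNAJC25-GNG10, named for a joint transcript, was at -0.22 (limma adjusted p 0.110, and 0.0271 with array weights) and DNAJB14 of the endoplasmic reticulum at -0.21 (limma adjusted p 0.210). No CCT, small heat shock protein or HSP90 gene among the members was called between breeds.

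Other genes of the pathway were compared between breeds too. Of 23 measured, 2 were called in LW minus CR, 1 in F1 minus LW and 3 in F1 minus CR, beside 6.53%, 1.43% and 6.66% of all probes. FKBP4, an immunophilin that works with HSP90 on steroid receptors, was at 14.98 ± 0.0959 in LW, 15.26 ± 0.126 in CR and 15.20 ± 0.166 in F1 pigs (SD, n = 11). All 11 LW arrays were below the CR mean. It was 0.28 lower in LW than in CR (log2 difference -0.28, SE 0.06, limma adjusted p 0.00149) and 0.22 higher in F1 than in LW (SE 0.06, limma adjusted p 0.0383). The first call passed under all alternatives run. The second passed under 6 of 9 and with 20 of 33 arrays left out, and was lost with LW HS 3 as Creole (0.21, limma adjusted p 0.105) and without it (limma adjusted p 0.0644). CRYAB, a small heat shock protein, was 0.72 higher in LW (SE 0.18, limma adjusted p 0.0112) and 0.68 higher in F1 (SE 0.18, limma adjusted p 0.0206) than in CR pigs, and all 3 of its probes were called in both. Of these calls on the brightest probe, the only loss was F1 minus CR without F1 HS 2 (0.60, limma adjusted p 0.0511). PFDN5, a prefoldin subunit that hands clients to the CCT ring, was 0.47 higher in F1 than in CR pigs (SE 0.12, limma adjusted p 0.0139).

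TCP1, the CCT1 subunit, was lower in F1 than in CR pigs at -0.26 (SE 0.07, limma adjusted p 0.0298) on its brightest probe, a call lost with scaled processed intensity (-0.18, limma adjusted p 0.244) and on leaving out 6 of 33 arrays in turn. Of its 6 probes 4, with 3 distinct sequences, were called between -0.39 and -0.26. These start at bases 1813 to 1873, whereas the probe at base 761 gave 0.04 and that with no start given -0.01. Under its older name HSP27, HSPB1 was at -0.20 in LW minus CR (SE 0.06, limma adjusted p 0.0462) on the brighter of its 2 probes and at -0.12 on the other. That call passed under 5 of 9 alternatives and with 15 of 33 arrays left out, and was lost with LW HS 3 as Creole (-0.21, limma adjusted p 0.0509). Some markers of vessels also differed between breeds. In LW minus CR limma called KDR at 0.94, CDH5 at 0.41 and the mural marker RGS5 at 0.72, but not PECAM1 at 0.19, TEK at -0.03 or VWF at -0.16. The other mural and smooth muscle markers were not called, with DES at -0.29 (p 0.0233), ACTA2 at -0.07 and TAGLN at 0.17. In F1 minus CR it called KDR at 0.59, TEK at -0.75 and the smooth muscle marker ACTA2 at -0.24, but not CDH5 at -0.06, PECAM1 at -0.06 or VWF at -0.02, nor RGS5 at 0.05, TAGLN at 0.02 or DES at -0.13. In F1 minus LW it called TEK at -0.72 and RGS5 at -0.67, but not CDH5 at -0.47, KDR at -0.35, PECAM1 at -0.26 or VWF at 0.14, nor ACTA2 at -0.17, TAGLN at -0.16 or DES at 0.16. The KDR calls, RGS5 in LW minus CR and TEK in F1 minus CR passed under all 9 alternatives and with any of 33 arrays left out. CDH5 passed under 5 of 9 and with 12 of 33 left out, and was lost with normexp (limma adjusted p 0.0515), with no filter on dim probes (limma adjusted p 0.0557), with LW HS 3 as Creole (limma adjusted p 0.0754) and with the evenness measure as a covariate (limma adjusted p 0.0839). ACTA2 passed under 6 of 9 and with 10 of 33 left out, and was lost with scaled processed intensity (limma adjusted p 0.205), with no filter on dim probes (limma adjusted p 0.0572) and with LW HS 3 as Creole (limma adjusted p 0.0706). In F1 minus LW, TEK (limma adjusted p 0.0680) and RGS5 (limma adjusted p 0.0729) were lost with the evenness covariate, and passed with 26 and 18 of 33 arrays left out. Summed endothelial levels overlapped, from 12.19 to 13.41 in CR, 12.30 to 13.70 in LW and 12.05 to 12.90 in F1 arrays. Their part in the breed differences was not tested.

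Pigs of the same group differed together in part of the heat shock set. Group means were removed from each gene, and the 10 pairs of HSPH1, DNAJB1, HSPA8, HSP90AA1 and BAG3 were correlated over 33 arrays, with 2-sided permutation p adjusted over the 10. The permutation treats all arrays as exchangeable. HSPA8 and HSPH1 spread more in HS arrays, and arrays shared slides and litters, so these p may be too small. HSPH1 and HSPA8 rose and fell together, with Pearson r 0.78 (permutation p 1e-05, the smallest that 100000 resamples can give, adjusted 1e-04) and Spearman rho 0.69 (permutation p 3e-05, adjusted 3e-04). With the 2 most distant arrays on the HSPH1 axis left out it was 0.65, with slide removed 0.76, and within the 4 slides of 7 or 8 arrays between 0.59 and 0.87. DNAJB1 followed HSPA8 with r 0.55 (permutation p 0.00086, adjusted 0.0043) and rho 0.61 (permutation p 0.00024, adjusted 0.0012). Its r with HSPA8 was 0.48 without 2 arrays and 0.58 to 0.87 within slides. With HSPH1 it had r 0.44 (permutation p 0.011, adjusted 0.036) and rho 0.45 (permutation p 0.0094, adjusted 0.031), r 0.44 without 2 arrays and 0.22 to 0.72 within slides.

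BAG3 and the brightest probe of HSP90AA1 did not follow them at a level that passed. This HSP90AA1 probe had r from -0.04 to 0.24 with the 4 others, the smallest adjusted permutation p being 0.38, and within slides r was between -0.45 and 0.80. BAG3 had r 0.20 with HSPH1, -0.10 with HSPA8 and -0.37 with DNAJB1 (permutation p 0.033, adjusted 0.082). Among 32763 other gene names, those whose pattern over the 33 arrays was most like HSPH1 were SUGT1 (r 0.80), itself an HSP90 co-chaperone, IWS1 (r 0.78), LARS (r 0.78), and a pair with no symbol from the files (r 0.78 and 0.77). Only SUGT1 was closer to HSPH1 than HSPA8 was.

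**Figure D4:**
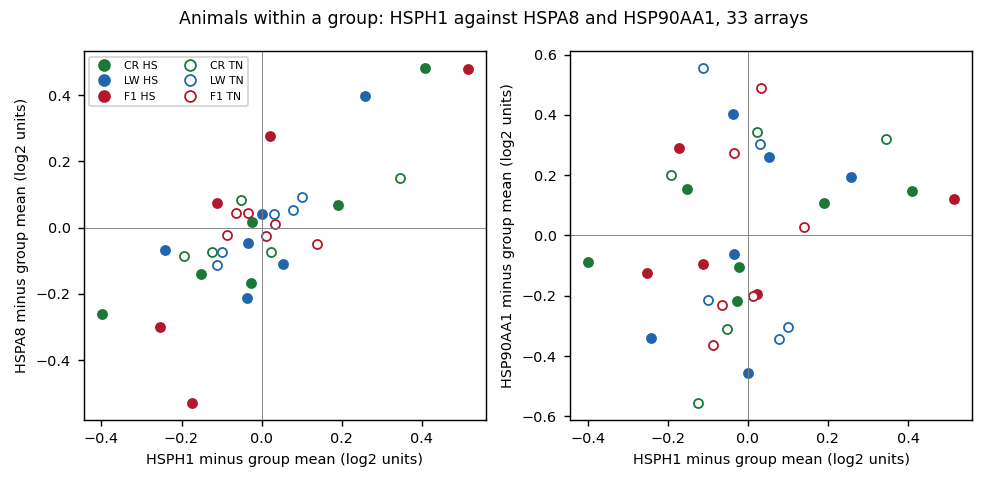
Log2 intensity minus its group mean on each of 33 arrays, HSPH1 on the horizontal axis against HSPA8 (left) and HSP90AA1 (right), coloured by breed with TN open and HS filled. Points rise along a line on the left (r 0.78) and scatter on the right (r 0.24).

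How far a member can be read from a single probe varied. HSP90AA1 has 8 probes with 7 distinct sequences, and these fell into sets, formed after the group-centred values were seen. The probes at bases 227 and 662 and one with no start given went together (r 0.66 to 0.85), as did those at bases 1898 and 2388 and a copy of the former (r 0.86 to 0.95). Between the sets r ran from -0.32 to 0.38. The probes at 1473 and 2348 followed neither set, with r from -0.50 to 0.32. The brightest probe, at base 662, is of the first set, and the differences given above for HSP90AA1 are its own. Sequences of the first set and of the probes at 1473 and 1898 are shown, since they read different stretches of the same message.
HSP90AA1 base 227: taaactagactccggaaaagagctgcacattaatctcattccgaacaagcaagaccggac
HSP90AA1 base 662: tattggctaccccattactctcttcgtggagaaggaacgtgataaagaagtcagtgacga
HSP90AA1 start not given: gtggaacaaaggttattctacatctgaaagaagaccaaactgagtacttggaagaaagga
HSP90AA1 base 1473: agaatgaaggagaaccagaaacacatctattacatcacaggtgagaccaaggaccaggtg
HSP90AA1 base 1898: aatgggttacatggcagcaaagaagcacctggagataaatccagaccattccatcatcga

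**Figure D5:**
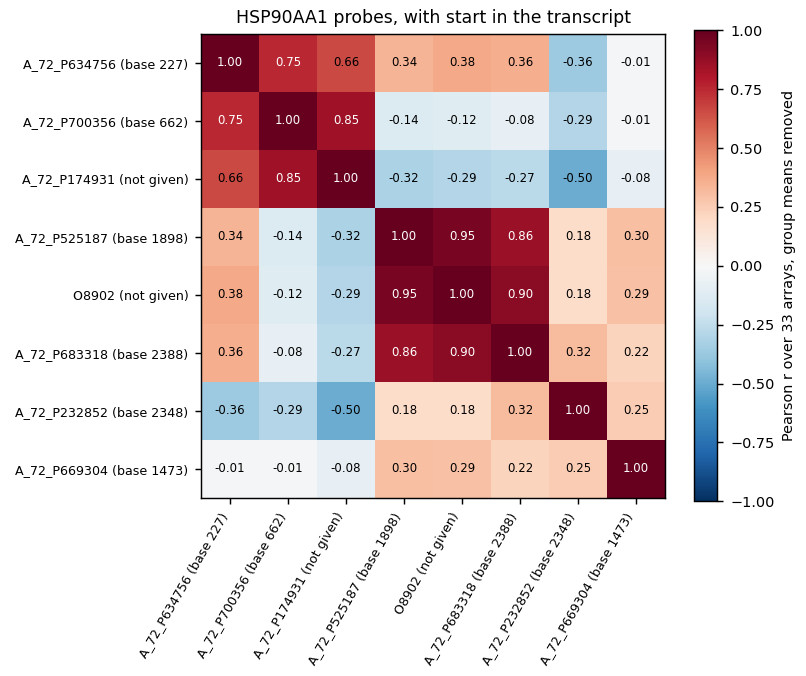
Pearson r over 33 arrays, with group means removed, between the 8 HSP90AA1 probes, each named with its start in the transcript where given. Blocks of high r join the first 3 probes (0.66 to 0.85) and the next 3 (0.86 to 0.95), while r between the blocks is -0.32 to 0.38.

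The sets also differed in the breed comparisons. For LW minus CR the probes of the first set were at 0.08, 0.23 and 0.07 and those of the second at -0.22, -0.21 and -0.14, with no call (the smallest limma adjusted p was 0.195). For HS minus TN they were at 0.17, 0.14 and 0.09 and at 0.05, 0.01 and -0.02. With HSPA8 the first set had r from -0.06 to 0.22 and the second set 0.53 to 0.56, and with DNAJB1 -0.07 to 0.53 and 0.60 to 0.65, over 33 arrays with group means removed. These are descriptions, computed after the sets were seen. With HSPH1 both sets had r from 0.22 to 0.27. A gene named HSP90AA1 was thus at a higher or lower mean in LW pigs, and followed HSPA8 more or less closely, according to the probe read.

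For HSPA8 both probes moved together (r 0.93), and for DNAJB1 the brightest probe had r 0.74 to 0.92 with 3 others and 0.17 with the probe at base 621. HSPH1 had r 0.89 between the probes at bases 2888 and 3494, the latter used here, 0.46 with another and -0.35 with the dimmest. Over the 28 members with more than 1 kept probe sequence, the median r between sequences ran from -0.18 for BAG6 to 0.93 for HSPA8, HSPA14 and DNAJC15. Breed explained a median of 8.53% of a member's variance, temperature 2.31% and slide 17.5%, beside 8.32%, 1.85% and 16.4% over all kept probes. Each factor was fitted alone. Slide has the most levels and temperature the fewest, and more levels take up more variance by chance, so the factors are not ranked.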

How the data were processed

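RNA of 33 pituitary samples, taken from the anterior lobe according to the paper, was labelled with Cy3. It was hybridised to 1-colour Agilent porcine arrays, 1 pig each. Per the file headers the deposited files held the intensity of each spot as read by Agilent Feature Extraction 10.10.1.1, and the authors deposited a table of log2 values of 45667 probes, quantile normalised. Here log2 median intensities were quantile normalised without background correction over 60305 probes. They differed from the deposited log2 values by 0.00376 at the median and 0.124 at most. A probe was kept where in some group 75% or more of the arrays read it well above background, which left 47083. limma 3.58.1 (R 4.3.3) fitted breed and temperature, and the 6 groups for effects within breeds and the interaction, with Benjamini-Hochberg adjustment over all kept probes. The title of LW HS 3 was followed. Litter and pen were not modelled. Members, lists and tests were chosen with earlier results of these data known. The text names HSPA8, HSPH1, HSP90AA1, HSP90AB1, DNAJB1, BAG3, HSF1 and HSF2 always, and in each comparison the members past the threshold and, where under 5 passed, the 5 with the smallest p. Alternatives were the processed intensity scaled by its 75th percentile, normexp with an offset of 50, the deposited log2 values, no dim filter, slide as a fixed or random block, array weights, LW HS 3 as Creole, and each array left out. Evenness along transcripts as a covariate was added after the data were seen. The fitting code was run on simulated independent normal values with known changes. These held no slide, litter or pen effects, so the run says nothing on those. The number of arrays limits the precision, and 0 sample columns were unused.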

Additional observations from a re-analysis of the deposited data

Results flagged for a closer look

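In 10 of 174 groups of 5 or 6 arrays (29 named genes in 6 groups), the highest or lowest array stood apart by Dixon's test, which chance alone gives in about 1 of 20 groups. Highest were DNAJA4 in CR TN 2 at 11.13 (next 10.76), DNAJB12 in CR HS 3 at 12.87 (next 12.79), DNAJB9 in LW HS 1 at 12.38 (next 12.09), DNAJC19 in CR HS 2 at 11.92 (next 11.82), HSF1 in CR HS 6 at 11.37 (next 11.28), HSF2 in F1 TN 4 at 8.42 (next 8.08) and HSP90AB1 in CR TN 3 at 6.73 (next 6.33). Lowest were DNAJC7 in CR TN 3 at 11.61 (next 12.33), DNAJC25-GNG10 in F1 TN 5 at 11.81 (next 12.06) and HSPA1L in LW TN 2 at 7.69 (next 8.05). Values are log2 intensities.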

How the results depend on the processing

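Counts of members called stayed at 0 for HS minus TN, for each breed alone and for the interaction under all alternatives and with any array left out. For LW minus CR the main count of 2 became 1 with LW HS 3 taken as Creole and 0 with evenness along transcripts as a covariate. Array weights gave 3, 3 and 3 for LW minus CR, F1 minus LW and F1 minus CR. Slide as a fixed block gave 1 for F1 minus LW and 3 for F1 minus CR, slide as a random block 1 and 2, and LW HS 3 taken as Creole 1 for F1 minus LW. Leaving out each array gave 1 to 3 for LW minus CR, 0 to 2 for F1 minus LW and 1 to 2 for F1 minus CR. No called gene changed sign. Among 765 values of named genes under alternatives 21 changed sign, and 49 of 2805 with an array left out, none of them called. In HS minus TN with slide as a fixed block the smallest adjusted p of a member was 0.0806, that of DNAJC6. Over all probes HS minus TN had 9 calls, beside 91 with slide as a fixed block, 58 as a random block, 23 with scaled processed intensity, 0 with evenness as a covariate and 6 to 38 with an array left out. LW minus CR had 3074, beside 1842 with LW HS 3 as Creole. F1 minus LW had 674, beside 2504 with array weights, 426 with LW HS 3 as Creole, 442 with evenness as a covariate and from 350 (without F1 HS 1) to 1136 (without F1 HS 3) with an array left out. F1 minus CR had 3137, beside 2037 (without F1 HS 2) to 4182 (without F1 HS 3). LW pigs alone had 0, beside 6 with array weights and 0 to 4 with an array left out, which gave 0 to 2 in CR, 0 to 3 in F1 and 0 to 1 for the interaction. No paired analysis was possible because the labels number no replicates across groups and do not give the litter, although the paper arranged pigs in blocks of littermates. The number of arrays and the brightness over background limit what could be detected.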
